A study of Mus musculus with 6 samples.

Results

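Glycolysis turns glucose into pyruvate in the cytosol, and the genes of its enzymes, of the carriers that bring glucose in and take lactate out, and of the oxygen-sensing pathway that controls many of them were followed here in mouse embryonic stem cells (ESCs). The set holds 38 genes, listed by name for their roles, with earlier results of these data known: glucose and lactate carriers, the enzymes of glycolysis, enzymes at the fate of pyruvate, the hypoxia-inducible factors (HIFs) with their partner and the prolyl hydroxylases that mark them for degradation, and targets of HIFs. All 38 were among the 37620 genes of the count table, and all 38 passed the filter on low counts, as did 16023 genes in all. PolyA RNA was sequenced from E14 ESCs, a line of strain 129/Ola grown in serum, with 3 libraries each from the wild-type line and from the Ube2d3-S138A mutant. In the mutant, 1 serine of UBE2D3, an enzyme that passes ubiquitin to its targets, was replaced by alanine in both alleles (S138A) by CRISPR/Cas9 editing, and the mutant line is 1 clone, so that the mutation and the clone cannot be told apart. The labels do not say whether the libraries of a genotype are separate cultures, so the P values measure the spread between these libraries, which may be technical. The wild-type libraries carry the numbers 1, 2 and 3 of the labels, whereas no label ties a mutant column to a number, and these libraries are called A, B and C.

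ESCs make much of their ATP by glycolysis, with a high output of lactate even where oxygen is present. In oxygen, prolyl hydroxylases modify the HIF alpha subunits, the von Hippel-Lindau ubiquitin ligase then marks them for the proteasome, and in low oxygen the subunits build up, pair with ARNT and switch on genes of glucose uptake, glycolysis and adaptation to low oxygen. HIF protein is thus set mostly after transcription, and RNA counts do not measure it.

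Levels are CPM, counts scaled to the size of the library, after scaling by TMM, with 33227593 to 37169770 counts per library, and they are given as mean ± SD of 3 libraries. On principal component 1 (57.2% of the variance) the libraries wild-type 3 and S138A C lay far from the rest, and component 2 (25.6%) separated the genotypes. The squared difference between wild-type 1 and 2 had a median of 2.77 times that of sampling noise alone, and S138A A and B gave 4.23 times. Pairs of wild-type 3 or S138A C with another library of the same genotype gave 39.9 to 68.0 times. No library was thus counted as a copy of another of its genotype. The edited gene Ube2d3 stood at 473, 459 and 304 CPM in the wild-type and 491, 429 and 265 CPM in the mutant libraries, and counts per gene do not show the edited codon. Among 8 ESC markers the summed level was 4998 to 5094 CPM in wild-type and 4587 to 5101 CPM in S138A libraries. Single markers differed more than this sum. Zfp42 had 943, 932 and 899 CPM in wild-type and 875, 693 and 612 CPM in S138A libraries, with no overlap. Klf4 had 193, 192 and 229 CPM against 257, 216 and 344 CPM, and it overlapped, as did the remaining markers. Of 8 fibroblast markers, Lum and Dcn were too low to test. The summed level was 43.0 to 72.6 CPM in wild-type and 79.2 to 115 CPM in S138A libraries. Much of it came from Col1a1 (21.1, 20.5 and 36.1 CPM against 68.8, 75.0 and 37.9 CPM). The other 5 tested markers summed to 22.3 to 36.5 and 38.2 to 41.2 CPM. Of the 6 tested, Col1a1, Thy1 and Col3a1 were higher in every S138A library than in any wild-type library. Thy1 stood at 11.1 ± 0.173 and 22.6 ± 5.33 CPM and Col3a1 at 0.537 ± 0.0901 and 1.66 ± 0.701 CPM. These 3 were also called higher once the library number entered the model, as described below. The remaining tested markers overlapped, among them Col1a2 at 10.9 ± 4.67 and 9.08 ± 2.80 CPM. For 8 primitive endoderm markers the sum was 91.1 to 101 and 76.1 to 86.4 CPM, of which Lama1 made up 76.4 ± 3.31 and 56.7 ± 1.97 CPM, and without it the sum was 17.8 to 21.7 and 20.9 to 27.8 CPM. The part of these other cell types in the results was not tested.

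In wild-type ESCs the highest levels per length were those of Gapdh, Aldoa, Pkm and Pgam1, of which Aldoa belongs to upper and the others to lower glycolysis. Per kilobase of merged exons, Gapdh, the enzyme of the first oxidation step, reached 697 ± 18.1 CPM, ahead of Aldoa, the main aldolase, at 519 ± 78.2 CPM per kilobase. Pkm, the last enzyme of the pathway, followed at 418 ± 22.0 and the mutase Pgam1 at 397 ± 21.7 CPM per kilobase, and the libraries of this pair overlapped. Then came Ldha, which turns pyruvate into lactate, at 237 ± 11.6, the enolase Eno1 at 215 ± 2.08, the kinase Pgk1 at 205 ± 24.1, the glucose carrier Slc2a3 at 163 ± 24.0, the isomerase Tpi1 at 144 ± 20.4, the glucose carrier Slc2a1 at 138.04 ± 25.4 and Pdha1, a subunit of pyruvate dehydrogenase, at 107 ± 9.40 CPM per kilobase. These 11 genes were the only members above 100 CPM per kilobase. From Eno1 to Slc2a1 each gene overlapped the next in this order, so that neighbours did not differ beyond the spread between libraries, whereas all libraries of Eno1 lay above those of Slc2a3, Tpi1 and Slc2a1. Over all 38 genes, 26 overlapped the next lower gene in at least some libraries and 11 did not.

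Isoforms of the same step differed in level. Hk2 stood at 58.8 ± 3.00 CPM per kilobase against 4.33 ± 1.99 for Hk1, both hexokinases that trap glucose in the cell. Among the phosphofructokinases, which commit the sugar to glycolysis, Pfkl had 26.9 ± 3.57, Pfkp 11.2 ± 0.590 and Pfkm 10.5 ± 2.37 CPM per kilobase. Their merged exons measured 6675, 13401 and 3340 bases. Without division by length the wild-type levels were 179 ± 23.8, 150 ± 7.91 and 35.1 ± 7.92 CPM, so that the distances between these genes depend on the length used. The lowest of the set were 4 targets of hypoxia signalling, among them Ankrd37 at 3.12 ± 0.412 and Ndrg1 at 2.10 ± 0.195 CPM per kilobase. Below these lay Adm, the gene of the peptide adrenomedullin, at 0.835 ± 0.386 CPM per kilobase. Last came Car9, a carbonic anhydrase of the cell surface, at 0.244 ± 0.134 CPM per kilobase. Car9 rested on 11 to 68 reads per library. Exon lengths came from GENCODE M21, which is annotated on GRCm38, a later build than the one the reads were aligned to. Merged exons cover all annotated transcripts of a gene, so the order per kilobase depends on this length.

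Some members share sequence with near-identical copies, and how reads that fit several loci were counted is not stated. The locus Eno1b, a copy of Eno1, held 11912 to 18698 counts per library, or 35.2% of the counts of Eno1 itself, so that the level of Eno1 is uncertain. Pgam1-ps2 held 390 to 566 counts, 1.72% of those of Pgam1. The named copies of Pgk1, Ldha and Bnip3l held at most 22 counts in any library, and Gapdh has many processed copies that were not listed by name.

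S138A ESCs were then compared with wild-type ESCs to ask whether genes of glucose use and oxygen sensing differ with the mutation. No member was called by edgeR's quasi-likelihood test at an adjusted P under 0.05 over all genes, where the test called 0 of 16023 genes (0% of all genes tested) and 2270 genes had an unadjusted P under 0.05. limma-voom also called 0% of genes and no member, and DESeq2, which called 420 genes higher and 377 lower, called 1 member, Pfkp. Unadjusted P values were under 0.05 for 3 members with higher levels in S138A, Slc2a3, Pfkl and Pfkp (7.89% of members against 7.62% of all genes tested), and for 0 members with lower levels (6.55% of all genes), so the share was close to the background in 1 direction and below it in the other. The same 3 genes were the members whose S138A libraries all lay above the wild-type libraries (11.3% of all genes), and Slc16a1 and Ndrg1 were those whose S138A libraries all lay below (10.9% of all genes). The median log2 fold change over the members was 0.07, beside 0.02 over all genes. Above 0 lay 26 of 38 members (68.4%) and 8402 of the 16023 genes tested. In bulk RNA, fewer cells of a type and less RNA per cell cannot be told apart.

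More members were called once the library number entered the model. For this the last character of each column name was read as the number, so that wild-type 3 was set against S138A C. Deviations of the libraries from their group means correlated at 0.53, 0.493 and 0.753 for the same-numbered pairs. With 1 and 2 crossed the values were 0.515 and 0.526. The correlations thus follow wild-type 3 and S138A C and cannot decide how the other libraries pair. Like the other tests, the block was chosen with earlier results of these data known. With this replicate block edgeR called 9 members higher (23.7% of members; 10.7% of all genes) and 2 members lower (5.26%; 9.13% of all genes). Those higher were Slc2a1, Slc2a3, Hk1, Pfkl, Pfkp, Aldoa, Vegfa, Ddit4 and P4ha1, with log2 fold changes of 0.23 to 0.74 and adjusted P values of 0.0058 to 0.034, and those lower were Pfkm and Hif1a. In the 4 libraries left without wild-type 3 and S138A C, edgeR called 11 members higher (15.3% of 16055 genes) and 6 lower (14.3%). These 17 held all 11 genes of the blocked fit. The 4 libraries are part of the 6 in that fit and were picked after the split was seen. The shared calls are therefore not independent support. The 6 further genes were Ldha and Adm, higher, and Aldoc, Ldhb, Pdk1 and Ndrg1, lower. The pairing rests on column names, and S138A A and B could equally be crossed.

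**Figure D1:**
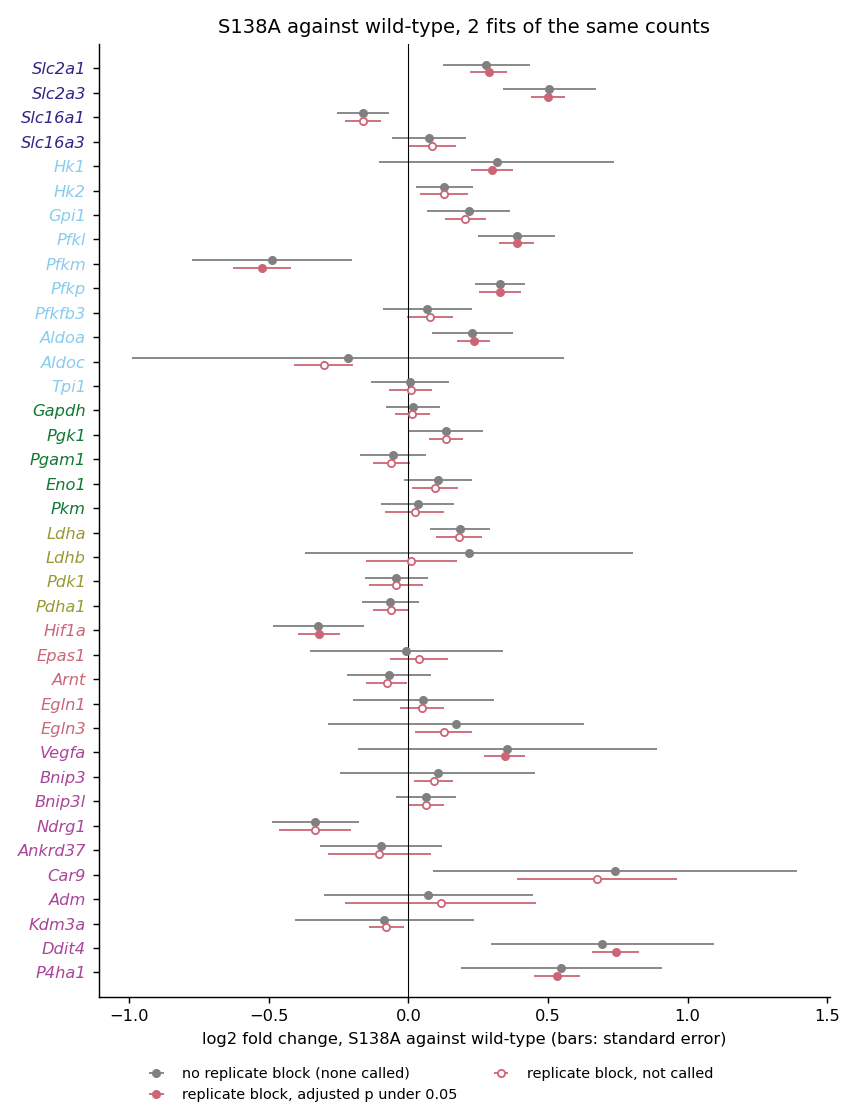
Log2 fold change of each of the 38 genes in S138A against wild-type ESCs (x axis), with bars for the standard error, from the fit without (grey) and with (red) the replicate block; gene names are coloured by role. Filled red points are the 9 higher and 2 lower genes called with the block, no grey point was called, and the points of the 2 fits lie close together while their errors differ most for genes such as Aldoc, Ldhb, Vegfa and Hk1.

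Glucose carriers were higher in the mutant cells in the blocked fit. Slc2a3 (GLUT3), a carrier with a high affinity for glucose, had 1064, 1095 and 1379 CPM in wild-type and 1484, 1503 and 2036 CPM in S138A libraries A, B and C. Every S138A library thus lay above every wild-type library, with S138A C the highest. The change was 1.42-fold (log2 0.51 ± 0.17 SE, edgeR adjusted P = 0.268), and with the block the adjusted P was 0.00618. Slc2a1 (GLUT1), the carrier of most cells, had 424, 442 and 586 CPM in wild-type and 546, 549 and 667 CPM in S138A libraries. Wild-type 3 overlapped the mutant libraries, and the difference was 1.21-fold (log2 0.28 ± 0.16 SE, edgeR adjusted P = 0.477; with the block 0.0253). Slc2a3 made up 71.0 ± 0.708% of the reads of this pair of genes in wild-type and 73.9 ± 1.25% in S138A libraries, which did not overlap (exact two-sided permutation P = 0.1, the smallest that 3 against 3 libraries allow; 0.4 adjusted over 8 shares tested).

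Lactate carriers showed the opposite order or none. Slc16a1 (MCT1) had 165, 165 and 181 CPM in wild-type and 152, 143 and 161 CPM in S138A libraries, so that all mutant libraries lay below the wild-type ones. The size was small (log2 -0.16 ± 0.09 SE, edgeR adjusted P = 0.485) and was not called with the block (adjusted P = 0.110). Slc16a3 (MCT4), a carrier linked to lactate export, ranged from 83.9 to 112 CPM in wild-type and from 93.2 to 102 CPM in S138A libraries (log2 0.07 ± 0.13 SE).

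In upper glycolysis the 3 phosphofructokinase genes did not move together. Pfkl, the liver type, had 163, 168 and 207 CPM in wild-type and 210, 227 and 267 CPM in S138A libraries, with no overlap (1.31-fold, log2 0.39 ± 0.14 SE, edgeR adjusted P = 0.297; with the block 0.0113). Pfkp, the platelet type, had 146, 159 and 145 CPM against 189, 180 and 196 CPM, also with no overlap. This was 1.25-fold (log2 0.33 ± 0.09 SE, edgeR adjusted P = 0.220; with the block 0.0251), and DESeq2 gave an adjusted P of 0.0195, where it called 2.84% of genes higher and 2.55% lower. Pfkm, the muscle type, had 31.6, 29.4 and 44.1 CPM in wild-type and 18.7, 20.3 and 36.0 CPM in S138A libraries. Here S138A C lay within the wild-type range and both other mutant libraries lay below it (log2 -0.49 ± 0.29 SE, edgeR adjusted P = 0.493; with the block -0.53 ± 0.10 SE, adjusted P = 0.0173).

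As a share of all phosphofructokinase reads, Pfkm held 9.27, 8.24 and 11.1% in the 3 wild-type libraries but 4.47, 4.74 and 7.22% in the mutant ones, with means of 9.55 ± 1.47% and 5.48 ± 1.51% (exact permutation P = 0.1; 0.4 adjusted). The S138A libraries all lay below the wild-type ones, and within each genotype the third library had the highest share. Pfkl held 49.1 ± 2.76% and 52.3 ± 1.798%, and Pfkp 41.4 ± 4.21% and 42.2 ± 3.00%, with overlap in both. Per kilobase of exon the Pfkm shares were 21.4 ± 2.43% and 12.9 ± 3.10%.

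**Figure D2:**
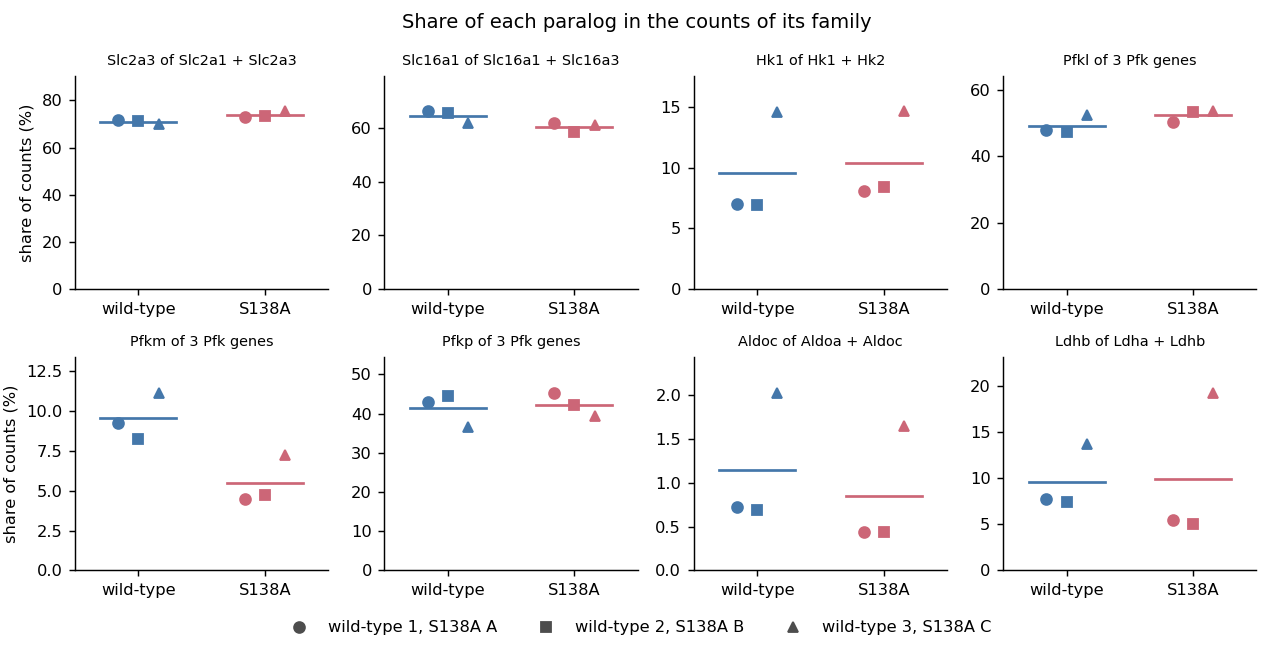
Share of reads (percent, y axis from 0) that each gene held within its family in every library, by genotype (x axis), with a horizontal line at the mean of 3 libraries and one symbol per library number. Pfkm and Slc2a3 do not overlap between genotypes, whereas Hk1, Aldoc and Ldhb are highest in wild-type 3 and S138A C.

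The other genes of upper glycolysis differed less. Hk1 had 27.4, 26.8 and 56.5 CPM in wild-type and 31.6, 33.6 and 72.7 CPM in S138A libraries, so that the third library of each genotype stood far above the other libraries of its genotype (log2 0.32 ± 0.42 SE, edgeR adjusted P = 0.777; with the block 0.30 ± 0.08 SE, adjusted P = 0.0331). Hk2 was nearly level, with 351 ± 17.9 and 384 ± 35.1 CPM. Aldoa had 1340, 1422 and 1768 CPM in wild-type and 1612, 1690 and 2007 CPM in S138A libraries, which overlapped through wild-type 3 (log2 0.23 ± 0.14 SE, edgeR adjusted P = 0.524; with the block 0.0341). Aldoc, the aldolase best known from brain, had 9.75, 9.81 and 36.6 CPM against 7.13, 7.53 and 33.7 CPM. It had the largest spread of the set within a genotype and was called in neither fit of 6 libraries (log2 -0.22 ± 0.77 SE; with the block -0.30 ± 0.11 SE, adjusted P = 0.0817). Gpi1, which turns glucose phosphate into fructose phosphate, had 260 ± 22.1 and 302 ± 55.9 CPM. Pfkfb3, which makes an activator of phosphofructokinase, had 41.2 ± 7.67 and 43.1 ± 4.79 CPM, and Tpi1 398 ± 56.3 and 399 ± 45.6 CPM.

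None of the 5 genes of lower glycolysis was called in any fit. Gapdh had 2882 ± 74.6 CPM in wild-type and 2914 ± 211 CPM in S138A libraries, a log2 fold change of 0.02 ± 0.10 SE. Pkm had 2092 ± 110 and 2141 ± 337 CPM, Eno1 1158 ± 11.2 and 1246 ± 179 CPM, Pgam1 786 ± 42.9 and 757 ± 93.2 CPM and Pgk1 461 ± 54.1 and 506 ± 64.8 CPM. In Pkm, Eno1, Gapdh and Ldha the highest S138A library was B, with 2530, 1432, 3116 and 991 CPM. The summed level of the 5 genes was 7260 to 7517 CPM in wild-type and 6947 to 8368 CPM in S138A libraries, a range that enclosed the wild-type one.

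At the fate of pyruvate, Ldha and Ldhb code for the subunits of lactate dehydrogenase, the first favouring lactate production and the second the reverse reaction. Ldha had 760, 764 and 828 CPM in wild-type and 862, 991 and 820 CPM in S138A libraries, which overlapped through S138A C (log2 0.18 ± 0.11 SE, edgeR adjusted P = 0.485; with the block 0.1603). Without wild-type 3 and S138A C it was called (log2 0.28 ± 0.07 SE, adjusted P = 0.0211). Ldhb had 63.8, 61.2 and 133 CPM in wild-type and 50.4, 52.6 and 196 CPM in S138A libraries. S138A A and B were thus the lowest of the 6 libraries and S138A C the highest, and the sign of the difference turned from log2 0.22 ± 0.59 SE over 6 libraries to log2 -0.28 ± 0.06 SE (adjusted P = 0.0134) over the 4. Pdk1, the kinase that shuts off pyruvate dehydrogenase, had 188 ± 16.0 and 183 ± 17.2 CPM, and its substrate Pdha1 399 ± 35.1 and 381 ± 18.3 CPM.

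Of the oxygen-sensing genes, Hif1a was lower in the mutant cells in the blocked fit. It had 159, 178 and 129 CPM in wild-type and 139, 130 and 104 CPM in S138A libraries, where wild-type 3 lay below both S138A A and B (log2 -0.32 ± 0.16 SE, edgeR adjusted P = 0.431; with the block 0.0266). Epas1, the gene of HIF2 alpha, had 74.5, 72.9 and 32.98 CPM against 64.6, 73.8 and 41.1 CPM. Its difference between genotypes was no larger than its error (log2 -0.01 ± 0.35 SE). Arnt, the partner of both, had 98.6 ± 10.0 and 94.0 ± 16.4 CPM. The prolyl hydroxylases Egln1 and Egln3, the latter itself a HIF target, had 27.1 ± 6.97 and 28.1 ± 7.91 CPM and 14.7 ± 6.72 and 16.5 ± 9.58 CPM, with adjusted P values of 0.950 and 0.899.

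**Figure D3:**
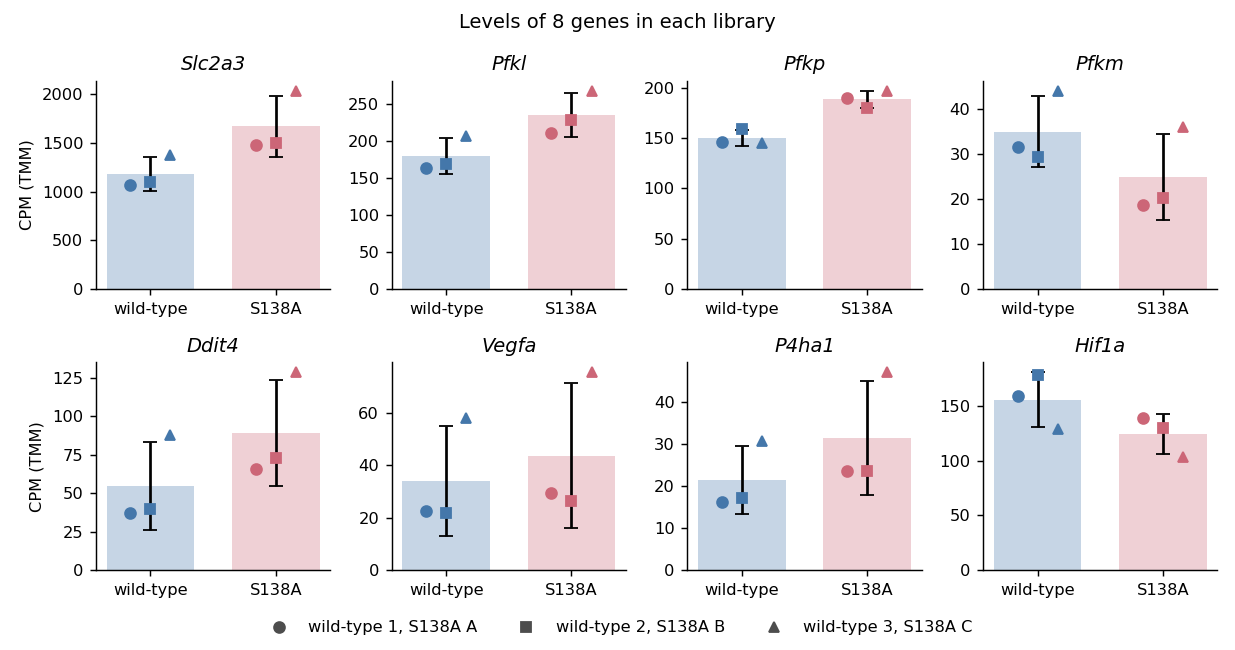
CPM (y axis from 0) of 8 genes in each of the 6 libraries by genotype (x axis), with bars for the mean, error bars for the SD of 3 libraries and one symbol per library number. Slc2a3, Pfkl and Pfkp do not overlap between genotypes, and Ddit4, Vegfa and P4ha1 rank the third library highest in both genotypes.

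Among the 10 HIF targets, 3 were higher with the block, which called 10.7% of all genes higher. This count was not tested against that share. Ddit4 (REDD1), an inhibitor of mTORC1 that also answers to other stresses, had 37.5, 39.6 and 87.9 CPM in wild-type and 65.8, 72.8 and 129 CPM in S138A libraries. S138A A and B both lay above wild-type 1 and 2, and S138A C lay above wild-type 3. Wild-type 3 overlapped the mutant range (1.62-fold, log2 0.69 ± 0.40 SE, edgeR adjusted P = 0.485; with the block 0.00582). P4ha1, a collagen prolyl hydroxylase subunit, had 16.3, 17.2 and 30.8 CPM against 23.6, 23.5 and 46.9 CPM (log2 0.55 ± 0.36 SE, edgeR adjusted P = 0.543; with the block 0.0102). Vegfa, the growth factor of blood vessels, had 22.5, 21.7 and 58.3 CPM against 29.3, 26.3 and 75.5 CPM (log2 0.35 ± 0.54 SE, edgeR adjusted P = 0.808; with the block 0.0218). In all 3 genes the overlap between genotypes came from wild-type 3 alone. Summed levels of fibroblast markers, given above, were also higher in each S138A library than in any wild-type library, and their part in the level of the collagen enzyme gene P4ha1 was not tested.

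None of the other 7 targets was called with the block. Ndrg1 had 14.9, 14.2 and 12.4 CPM in wild-type and 10.6, 9.98 and 12.3 CPM in S138A libraries, just without overlap (log2 -0.33 ± 0.16 SE, edgeR adjusted P = 0.395; with the block 0.108). Bnip3 and Bnip3l, receptors for the removal of mitochondria, had 65.1 ± 24.4 and 70.0 ± 29.3 CPM and 137 ± 11.6 and 143 ± 11.6 CPM. Kdm3a, a histone demethylase, had 203 ± 66.3 and 192 ± 59.1 CPM. Car9 had 0.424, 0.348 and 0.918 CPM against 0.580, 0.435 and 1.83 CPM, and its log2 fold change of 0.74 ± 0.65 SE was not called in any fit. Adm stood at 0.938, 1.04 and 2.07 against 1.65, 1.495 and 1.13 CPM, so that the third library was the highest in wild-type and the lowest in S138A. Ankrd37, an ankyrin-repeat gene, had 4.80 ± 0.635 and 4.49 ± 0.8001 CPM.

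For several members larger differences lay within each genotype, between wild-type 3 or S138A C and the other libraries. This split was seen in the data and was not tested. The median of the 38 members was 0.32 higher on the log2 scale in wild-type 3 than in wild-type 1 and 2, and 0.25 higher in S138A C than in S138A A and B, while the medians over all genes lay close to 0 in both genotypes. In both genotypes 22 members were higher in the third library (57.9%; 39.8% of all genes). Lower in both were 8 members (21.1%), beside 6354 of the 16023 genes tested. The sign differed for 8 members (21.1%), close to the 20.5% of all genes. At least 2-fold higher in both were 6 members (15.8%; 4.03% of all genes), and 0 members were 2-fold lower in both (2.55% of all genes).

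Those 6 genes were Aldoc, Ldhb, Car9, Vegfa, Egln3 and Hk1. Aldoc was 3.73-fold higher in wild-type 3 and 4.58-fold higher in S138A C than in the other libraries of its genotype, and Vegfa 2.63-fold and 2.71-fold. Ldhb was 2.12-fold and 3.81-fold higher, Hk1 2.08-fold and 2.23-fold and Egln3 2.07-fold and 2.499-fold. Ddit4 (2.28-fold and 1.86-fold), P4ha1 (1.83-fold and 1.99-fold) and Bnip3 (1.83-fold and 1.96-fold) came close to that size. As shares of reads, Hk1 stood at 7.01, 6.95 and 14.6% of the hexokinase pair in wild-type libraries and at 8.06, 8.38 and 14.6% in the mutant ones. Ldhb stood at 7.75, 7.42 and 13.8% of lactate dehydrogenase reads in wild-type and at 5.53, 5.04 and 19.3% in S138A libraries.

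Not all targets of hypoxia signalling lay in that direction. Kdm3a, a HIF target as well, had 243, 240 and 127 CPM in wild-type and 221, 230 and 124 CPM in S138A libraries, and Epas1 was 0.448 and 0.595 times its level in the other libraries. Hif1a lay below the other libraries in wild-type 3 and in S138A C too, at 0.764 and 0.771 times. Gapdh, Pgam1 and Eno1, of lower glycolysis, lay between 0.802 and 0.984 times, and Bnip3l at 0.908 and 0.877 times. Over the 5 genes of lower glycolysis, 1 gene, Pgk1, was higher in both of these libraries, against 8 of 10 genes of upper glycolysis and 4 of 4 carriers. The ESC marker Nanog was at 937 CPM in wild-type 3 and 775 CPM in S138A C, against 602 to 616 CPM in the other 4, and Pou5f1 was at 1018 and 954 CPM against 1363 to 1429 CPM. The part of the state of the cultures in these values was not tested.

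**Figure D4:**
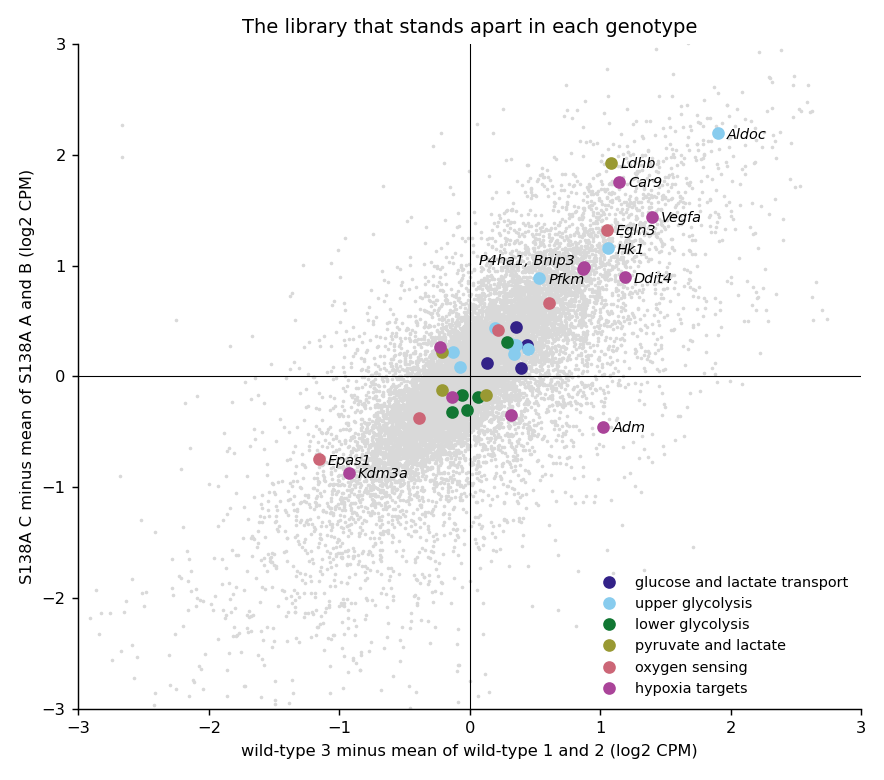
Difference in log2 CPM between wild-type 3 and the mean of wild-type 1 and 2 (x axis) and between S138A C and the mean of S138A A and B (y axis) for the 38 genes, coloured by role, over all 16023 genes tested (grey; 62 lie outside the axes). Aldoc, Ldhb, Car9, Vegfa, Egln3 and Hk1 lie above 1 on both axes, Epas1 and Kdm3a lie below 0 on both, and Adm lies to the right and below.

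**Figure D5:**
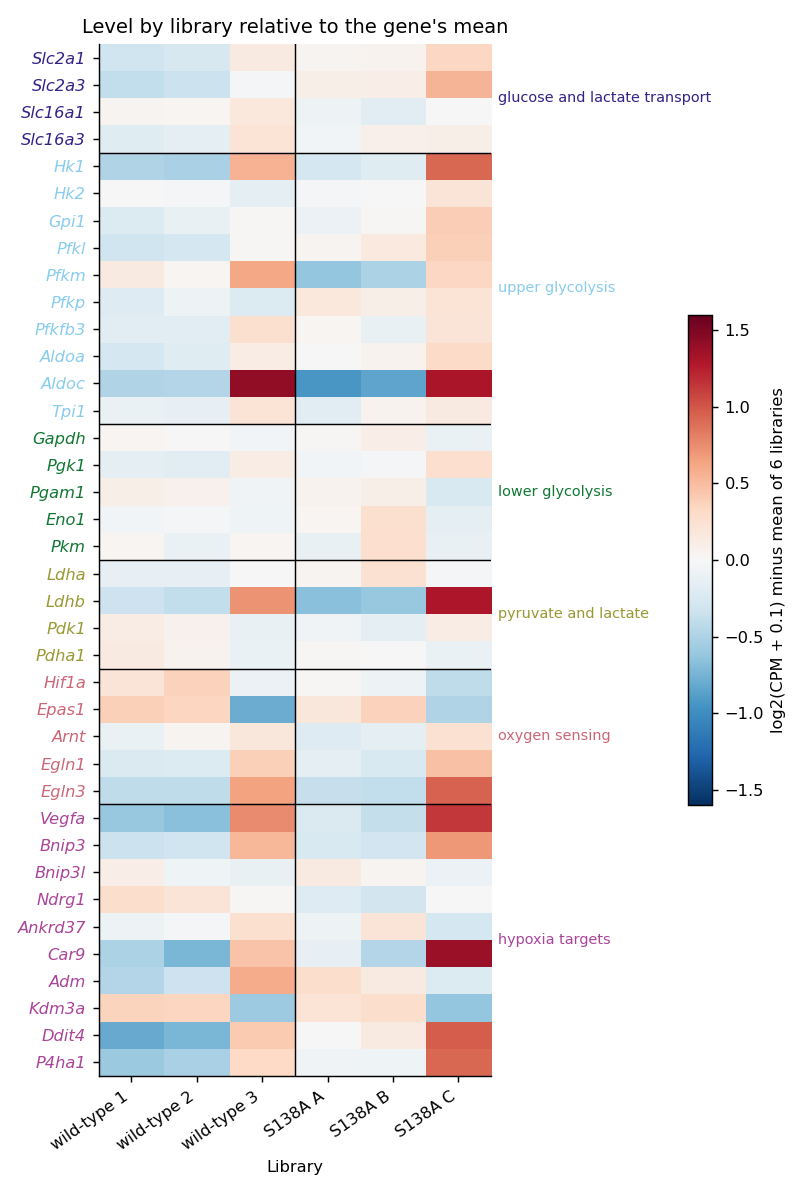
Level of each of the 38 genes (rows, grouped by role) in the 6 libraries (columns) as log2(CPM + 0.1) minus the mean of the gene over the 6 libraries, from blue (lower) to red (higher). The columns of wild-type 3 and S138A C are the darkest, with Aldoc reaching the largest differences, while the rows of lower glycolysis stay pale.

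HIFs bind a short core with the letters ACGTG or GCGTG. The bases before the start are shown for some of the members that differed with the block or between the third and the other libraries, and for some classical targets. Only starts with a match are shown, and other members that met these terms, such as Vegfa, Hk1, Pfkp and Hif1a, were left out. The core was looked for on both strands in the 250 bases before each start of the RefSeq promoter table (GRCm38.p6), which held 50 promoters of 34 members and none for Slc2a3, Epas1, Bnip3l and Ndrg1. Either core lay in 40 of 50 promoters of members (80.0%), in 54.1% of the promoters of genes tested and in 38.6% of all promoters, with a median GC content of 61.0, 59.6 and 52.4%. ACGTG alone lay in 46.0, 20.8 and 16.6%. The letters in capitals mark a core on either strand (CACGT and CACGC are the reverse), and adjoining cores such as CACGTG count on both strands. Sequences run 5' to 3' on the strand of the gene.
Slc2a1 (chr4:119108674-119108723, plus strand): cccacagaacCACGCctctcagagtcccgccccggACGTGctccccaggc
Pgk1 (chrX:106186940-106186983, plus strand): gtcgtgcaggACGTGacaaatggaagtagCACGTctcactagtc
Ldha (chr7:46845649-46845784, plus strand): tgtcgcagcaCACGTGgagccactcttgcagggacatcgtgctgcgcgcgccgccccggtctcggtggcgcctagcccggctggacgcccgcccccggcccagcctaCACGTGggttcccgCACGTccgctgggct
Bnip3 (chr7:138909527-138909633, minus strand): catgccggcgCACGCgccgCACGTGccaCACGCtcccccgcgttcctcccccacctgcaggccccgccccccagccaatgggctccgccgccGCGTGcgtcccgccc
Ddit4 (chr10:59951871-59951967, minus strand): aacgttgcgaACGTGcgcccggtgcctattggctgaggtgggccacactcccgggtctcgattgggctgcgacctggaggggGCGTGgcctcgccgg
P4ha1 (chr10:59323123-59323294, plus strand): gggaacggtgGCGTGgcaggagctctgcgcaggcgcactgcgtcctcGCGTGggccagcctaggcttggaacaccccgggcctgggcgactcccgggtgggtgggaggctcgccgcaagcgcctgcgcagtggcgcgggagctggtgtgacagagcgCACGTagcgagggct
Pfkl (chr10:78009892-78009916, minus strand): ttgtagactgGCGTGcgctccgcct
Kdm3a (chr6:71632930-71632954, minus strand): gggaggctgtGCGTGtcttgtgaga
Aldoc (chr11:78323013-78323037, plus strand): acctctgaggGCGTGgccttaccct

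Ldha and Bnip3 held 5 matches each in 1 promoter, more than any other member. Pgk1 and Ldha, which have 2 and 5 matches, did not pass the test in either fit of 6 libraries, while Ddit4 with 2 and P4ha1 with 3 were called with the block. Kdm3a and Aldoc, with 1 match each in the promoters shown, differed in opposite directions between the third and the other libraries. Neither core lay in 10 of the 50 promoters, which belong to 9 genes. Gpi1 and Tpi1 had no match at any start, while the other 7 genes, among them Vegfa, Hk1, Aldoa and Pkm, had at least 1 match at another start. A match is a stretch of letters and not a bound site.

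The other genes of these pathways were counted in lists beside the members. The test without the block called none of them, and the counts that follow are of calls with the block, which called 10.7% of all genes higher and 9.13% lower. None of these lists was tested against that background. Of 17 further genes of glycolysis tested, 0 were higher and 2 lower, Ldhc, the lactate dehydrogenase best known from testis (log2 -1.28, adjusted P = 0.0123), and Tigar, which lowers glycolytic flux (log2 -0.35, adjusted P = 0.0204). Of 8 further sugar and monocarboxylate carriers 2 were higher, Slc2a4, the carrier that answers to insulin, with 1.54, 1.46 and 1.76 CPM against 2.38, 2.99 and 4.85 CPM, and Slc2a8 with 9.87, 9.62 and 17.6 against 14.3, 14.0 and 25.5 CPM. In the pentose phosphate pathway 2 of 7 genes were higher, Pgls and Rpia, and 1 was lower, Rpe. Rpia had 42.9, 42.3 and 21.6 CPM in wild-type and 94.3, 132 and 23.9 CPM in S138A libraries, so that the difference between genotypes was small in the third libraries.

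Lists of the mitochondrial use of pyruvate and of other HIF genes were counted in the same fit. Of 10 genes of pyruvate dehydrogenase and its neighbours 1 was higher, Pcx, which makes oxaloacetate from pyruvate (log2 0.39, adjusted P = 0.0148), and 2 were lower, Pdhb and Dld. Of 16 genes of the citric acid cycle 0 were higher and 2 were lower, Idh3a (log2 -0.34, adjusted P = 0.0196) and Sdhb (log2 -0.41, adjusted P = 0.0249), and 5 of 16 had all S138A libraries below all wild-type libraries (10.9% of all genes). Of 12 further regulators of HIFs, 3 were higher, Os9, Arnt2 and Egln2, and 1 was lower, Eloc, a subunit of the von Hippel-Lindau ligase complex. Of 34 further HIF targets 10 were higher and 5 lower (10.7% and 9.13% of all genes). Loxl2, a lysyl oxidase that acts on matrix, had 24.9, 19.0 and 29.8 CPM in wild-type and 38.05, 35.9 and 57.6 CPM in S138A libraries. Kdm4b, a histone demethylase, had 21.2, 25.2 and 21.0 against 34.0, 33.5 and 31.7 CPM. Both had no overlap and were called by DESeq2 as well (adjusted P = 0.038 and 0.00193), and Ak4, an adenylate kinase, was lower (log2 -0.36, adjusted P = 0.0428).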

How the data were processed

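PolyA RNA of 3 wild-type and 3 Ube2d3-S138A E14 ESC libraries was used. Per the labels, base calls came from CASAVA version 1.8.4, alignment to mm9 (NCBIM37) from TopHat2 version 2.0.11 and the counts from featureCounts, whose settings are not given in the sources used here. The authors deposited raw counts per gene. ERCC spike-in RNA was added, and the table used holds 0 spike-in rows. All 6 columns were used, and the 3 that are not wild-type were taken as the S138A group.

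Symbols were matched by identifier for 32897 genes (87.4%). Counts were filtered with filterByExpr (minimum count of 10, minimum total count of 15), scaled by TMM and tested with edgeR version 4.0.16 (quasi-likelihood test, Benjamini-Hochberg adjustment over all genes tested, R version 4.3.3). A standard error was computed as |log2 fold change| over the root of the F statistic. The scripts were tested on simulated data that held no offset of wild-type 3 or S138A C from the other libraries. Alternatives were RLE and upper-quartile factors, other filters, DESeq2 version 1.42.0, limma-voom (version 3.58.1), stricter thresholds, each library left out, the replicate block, and wild-type 3 and S138A C left out together. Whether the final digits of the column names pair the libraries was checked through correlations of deviations from the group means, which were 0.53, 0.493 and 0.753 for the 3 pairs. With 1 and 2 crossed they were 0.515 and 0.526. Deviations cancel within a genotype, so with 1 library of each far from the rest this check could not decide the pairing of 1 and 2. At this depth counting error was small for most members.

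The 38 genes, the other gene lists, the markers and the tests were chosen with earlier results of these data known. The text names all 38 genes, up to 4 genes of smallest P value in each other list, near-copies by name, the edited gene and markers that stand beside a result. As no methods for this RNA-seq experiment were in the paper, the design of the tests follows the labels.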

Additional observations from a re-analysis of the deposited data

How the results depend on the processing

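The fit without the block called 0 members with RLE or upper-quartile factors, with either other filter, with limma-voom, at an adjusted P of 0.01, with a log2 fold change of at least 1 in size, and with any 1 library left out. Genes called higher and lower over all genes were 2 and 2 with no filter beyond 1 count, 420 and 377 with DESeq2 (1 member higher), 1717 and 1463 with the replicate block (9 and 2 members), 2463 and 2293 in the 4 libraries without wild-type 3 and S138A C (11 and 6 members), and 0 to 59 and 0 to 20 with 1 library left out, 59 and 20 being the values without S138A C. The median log2 fold change of the members stayed above 0 in every setting, between 0.01 without wild-type 2 and 0.23 without wild-type 3. Over all genes the median was 0.0129 without wild-type 2, close to the 0.0147 of the members, and 0.0279 without wild-type 3. The cause of these differences was not tested.

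Some small differences changed sign. Epas1 turned to log2 0.025 with upper-quartile factors, 0.00137 with the 1 CPM filter, 0.0497 with limma-voom and 0.039 with the block, and Tpi1 to -0.00626 with no filter beyond 1 count. In the 4 libraries Ldhb turned to -0.28 and Ankrd37 to 0.13. With 1 library left out log2 fold changes ran from -0.14 to 0.52 for Adm, -1.36 to 0.72 for Aldoc, -0.25 to 0.0138 for Ankrd37, -0.22 to 0.0131 for Arnt, -0.30 to 0.45 for Bnip3, -0.17 to 1.29 for Car9, -0.21 to 0.28 for Egln1, -0.42 to 0.61 for Egln3, -0.0148 to 0.20 for Eno1, -0.30 to 0.20 for Epas1, -0.042 to 0.066 for Gapdh, -0.18 to 0.76 for Hk1, -0.34 to 0.15 for Kdm3a, -0.74 to 0.67 for Ldhb, -0.12 to 0.0065 for Pdk1, -0.0217 to 0.23 for Pfkfb3, -0.12 to 0.041 for Pgam1, -0.11 to 0.10 for Pkm, -0.0086 to 0.21 for Slc16a3, -0.066 to 0.13 for Tpi1, -0.25 to 0.16 for Ube2d3 and -0.30 to 0.98 for Vegfa.

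Differences in shares (S138A minus wild-type, percentage points) ran from -0.70 to 0.14 for Aldoc, -1.30 to 3.38 for Hk1, -4.37 to 2.77 for Ldhb and -1.51 to 2.49 for Pfkp with 1 library left out. In the 4 libraries they were 1.79 for Slc2a3, -0.046 for Pfkp and -2.30 for Ldhb, and per kilobase of exon 6.799 for Pfkl, -8.53 for Pfkm and -0.0447 for Ldhb.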
